A study of Mus musculus with 12 samples.

Results

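Mt1, Mt2, Mtf1 and Slc30a1 are the metallothionein genes and zinc control genes described here. They were taken by symbol from the deposited count table, where all 4 were found among 53819 symbols, and all 4 passed the filter on low counts that left 13852 genes for testing. The cells were E14, a mouse embryonic stem cell line grown as a 2D culture, and every group shared that line. There were 4 groups of 3 libraries each: cells given L-proline and budesonide together for 72 h, cells given budesonide alone for 72 h, cells given L-proline alone for 72 h, and untreated control cells. Budesonide is a synthetic glucocorticoid, L-proline is an amino acid, and the labels give no dose. They also give no culture time for the control cells. Time in culture and treatment therefore cannot be told apart in comparisons against control. The labels do not state whether replicates came from separate cultures. P-values here therefore reflect differences among these libraries, possibly technical ones, and all results come from 1 cell line. Library totals ran from 5.30 to 15.9 M counts.

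Metallothioneins are small proteins whose many cysteines bind zinc, copper and cadmium, and they buffer the free zinc of a cell. Mtf1 is the zinc-sensing transcription factor: when zinc rises it binds metal response elements, the MREs, and raises transcription of the metallothionein genes and of Slc30a1, the carrier that exports zinc across the plasma membrane. Metallothionein genes are also known to be induced by glucocorticoids, oxidants and stress in many tissues, and the glucocorticoid response elements described for the mouse locus lie farther upstream than the windows shown here. Mt2 and Mt1 are direct neighbours on chromosome 8, in the order Mt4, Mt3, Mt2 and Mt1.

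The promoters of Mt1, Mt2 and Slc30a1 are shown because these are the genes at which Mtf1 is known to act, and because Mt1 and Mt2 moved apart in the counts. Each line is the 250 bases before the annotated start of the gene, 5′ to 3′ on the plus strand, from RefSeq on GRCm38.p6, and capitals mark each MRE core on either strand. The MRE core was searched as TGCACNC and TGCGCNC. The windows lie at chr8:94172368-94172617 for Mt2, chr8:94178839-94179088 for Mt1 and chr1:191906531-191906780 for Slc30a1.
Mt2: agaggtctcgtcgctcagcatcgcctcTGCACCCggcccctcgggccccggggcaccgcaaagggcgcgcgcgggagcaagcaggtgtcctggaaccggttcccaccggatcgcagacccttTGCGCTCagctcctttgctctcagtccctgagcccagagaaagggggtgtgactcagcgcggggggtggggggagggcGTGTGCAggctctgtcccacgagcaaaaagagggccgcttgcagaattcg
Mt1: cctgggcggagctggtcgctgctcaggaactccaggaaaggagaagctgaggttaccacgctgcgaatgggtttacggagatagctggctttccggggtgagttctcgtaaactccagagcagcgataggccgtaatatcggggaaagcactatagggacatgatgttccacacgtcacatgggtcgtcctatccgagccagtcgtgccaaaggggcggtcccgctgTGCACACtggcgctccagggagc
Slc30a1: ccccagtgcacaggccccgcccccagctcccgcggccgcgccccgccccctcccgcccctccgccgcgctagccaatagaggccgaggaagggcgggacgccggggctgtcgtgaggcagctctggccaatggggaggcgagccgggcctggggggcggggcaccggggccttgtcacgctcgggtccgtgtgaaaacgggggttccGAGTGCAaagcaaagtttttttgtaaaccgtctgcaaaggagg

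The Mt2 window held 3 MRE cores, the Mt1 window 1, the Slc30a1 window 1 and the Mtf1 window 0. At least 1 core was found in 21.4% of the 32851 promoter windows of this length in the table, and at least 3 in 1.26%. The table goes on for 50 bases after the start, and there Mt1 had 2 more cores and Mt2 and Slc30a1 1 more each, so that the 300-base windows held 4 cores in Mt2, 3 in Mt1, 2 in Slc30a1 and 0 in Mtf1. Of all 300-base windows, 25.7% had at least 1 core, 7.11% at least 2, 1.97% at least 3 and 0.517% at least 4. An antioxidant response core, TGACNNNGC, stood once in the upstream windows of Mt2 and Slc30a1 and in neither Mt1 nor Mtf1, with a share of 10.2% among all windows. The full palindromic glucocorticoid response element was in none of the 4 windows and in 0.00913% of all windows. Both strands were searched, and no matched stretch overlapped one of another motif. A match is only a run of letters, and where there is none, only these letters are missing from this window. The counts depend on where the annotated start lies. Which start these cells use was not tested, so the numbers of cores do not rank the promoters.

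Mt2 was lowest where both compounds were given. Its level was 249, 276 and 285 CPM (the count of a gene divided by library depth, in its usual per-M unit, scaled between libraries by TMM) with both compounds, 474, 568 and 465 CPM with budesonide, 601, 568 and 509 CPM with proline, and 710, 707 and 861 CPM in control. The 3 libraries of both compounds lay below all 9 others, and the control libraries lay above all others, while budesonide and proline overlapped. The group means were 270 ± 18.7 CPM with both compounds, 503 ± 57.1 CPM with budesonide, 559 ± 46.8 CPM with proline and 759 ± 88.0 CPM in control (SD, n = 3 each).

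**Figure D1:**
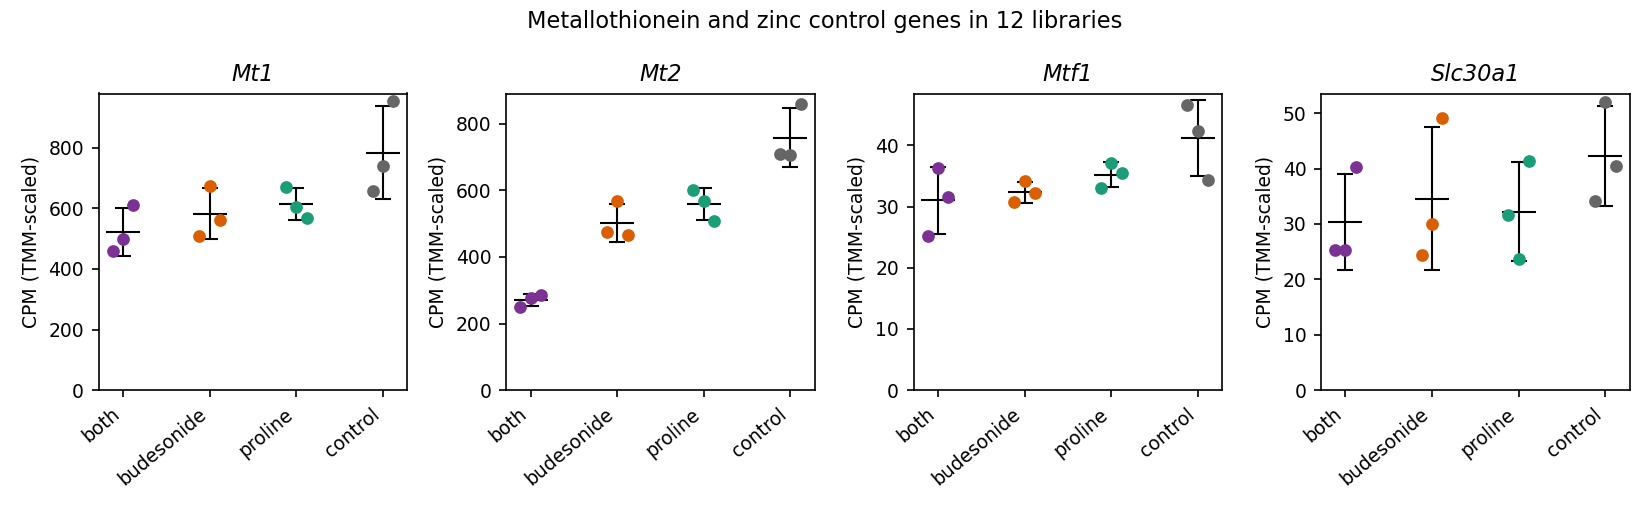
Levels of Mt1, Mt2, Mtf1 and Slc30a1 (CPM, TMM-scaled; y axes start at 0) in the 12 libraries. Points are libraries, bars the mean ± SD of 3, and the groups run from both compounds through budesonide and proline to control. Mt2 with both compounds sits between 249 and 285 CPM, below every other library, while the Slc30a1 groups overlap.

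Against control, Mt2 fell with both compounds to 0.356 of the control level, a log2 change of −1.49 ± 0.12 (SE; 95% interval −1.73 to −1.25; adjusted p = 2.74e-08). Only 3 of the 13852 genes tested had a smaller p in that comparison, although 7.67% of genes had a larger fold change in either direction. In bulk RNA, fewer cells of a type and less RNA per cell cannot be told apart. Mt2 also fell against control with budesonide alone (log2 −0.59 ± 0.11, adjusted p = 0.00230) and with proline alone (−0.44 ± 0.11, adjusted p = 0.0173). The call with proline ended without control 3 (adjusted p = 0.0895) or proline 3 (0.105), and the call with budesonide ended once a trend over transcript length was taken out (log2 −0.36, adjusted p = 0.0657). The range of adjusted p over all alternatives was 0.00289 to 0.105 with proline and 1.78e-05 to 0.0657 with budesonide.

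Each compound also went with less Mt2 in the presence of the other. Mt2 fell by 1.05 ± 0.12 on the log2 scale with both compounds against proline (adjusted p = 1.99e-06) and by 0.90 ± 0.12 with both against budesonide (adjusted p = 0.000141). In the second of these, where 1.47% of all tested genes were called, Mt2 ranked 8th by p. These calls and that of both compounds against control held in all 16 alternative settings run for each. Budesonide against proline gave a difference of −0.15 ± 0.11 for Mt2 (95% interval −0.39 to 0.08, adjusted p = 0.393), so these neighbours in the order of levels did not differ beyond their spread. The comparisons share groups and are not independent of each other.

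The proline effect on Mt2 was −0.90 on the log2 scale with budesonide and −0.44 without it. The difference of these effects, the interaction, was −0.46 ± 0.16 (95% interval −0.79 to −0.12) with an unadjusted p of 0.0100 and an adjusted p of 0.363, so it was not called. The test called 65 genes, or 0.469% of those tested, and none of the 4 genes described here was among them by edgeR, DESeq2 or limma-voom. Mt2 was the 1 of the 4 with an unadjusted p under 0.05, as 8.65% of all tested genes had.

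Mt1 moved less. Its level was 459, 497 and 612 CPM with both compounds, 511, 675 and 563 CPM with budesonide, 672, 606 and 568 CPM with proline, and 656, 741 and 954 CPM in control. The libraries of both compounds lay below the control libraries, but overlapped those of budesonide and proline, and control 3 stood well above the other control libraries. The means were 523 ± 79.6 CPM with both compounds, 583 ± 84.1 CPM with budesonide, 615 ± 52.3 CPM with proline and 784 ± 154 CPM in control (SD, n = 3 each), the same order as for Mt2.

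Mt1 fell in 1 comparison, both compounds against control, by 0.58 ± 0.14 on the log2 scale (95% interval −0.87 to −0.30, adjusted p = 0.00941). That call ended without control 3 (adjusted p = 0.0674), without both 1 (0.0764) or both 2 (0.0552), and without control 3 and budesonide 3 together (0.0506), over a range of 8.82e-05 to 0.0764. With budesonide alone the Mt1 change was −0.43 ± 0.14 (adjusted p = 0.0639) and was not called, though it was called under 6 of 16 alternatives, among them DESeq2 (0.0293) and limma-voom (0.0378), over a range of 0.0123 to 0.486. With proline alone it was −0.35 ± 0.14 (adjusted p = 0.139). Against proline, Mt1 with both compounds differed by −0.24 ± 0.14 (95% interval −0.52 to 0.05, adjusted p = 0.329), and against budesonide by −0.16 ± 0.14 (−0.44 to 0.13, adjusted p = 0.711), intervals that leave out the Mt2 changes in the same comparisons.

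**Figure D2:**
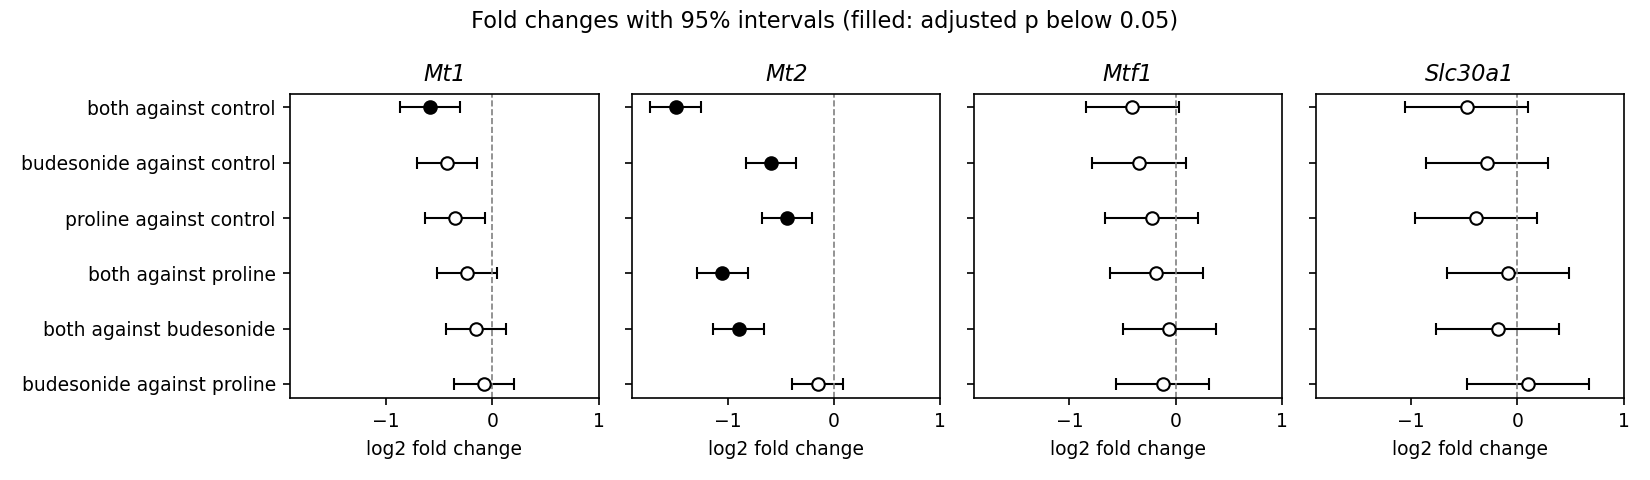
Log2 fold changes of the 4 genes (x axis) in 6 comparisons between groups (y axis, first group over second), with 95% intervals. Filled points passed an adjusted p of 0.05: Mt2 in all but budesonide against proline, Mt1 in both against control, and neither Mtf1 nor Slc30a1 in any.

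Of the 4 genes, 2 were called with both compounds against control, where 7.17% of all tested genes were called, and both fell. Mt2 was the 1 called with proline against control (7.88% of all genes called), with budesonide against control (6.51%) and with both compounds against proline (10.1%). The libraries of Mt2 did not overlap in those comparisons or in both against budesonide, and those of Mt1 did not in both against control. The share of all genes lying lower without overlap was 14.0% with both compounds against control, 14.0% with proline and 12.2% with budesonide against control, 15.6% with both against proline and 9.23% with both against budesonide. In budesonide against proline, where 20.1% of all genes were called, edgeR called 0 of the 4, DESeq2 and limma-voom 0, and 0 had an unadjusted p under 0.05.

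The ratio of Mt1 to Mt2 within a library does not depend on how libraries were scaled. The level of the ratio depends on how each 3′ end was captured and counted, so only its change between groups is read here. The ratio of counts was 1.84, 1.80 and 2.14 with both compounds, 1.08, 1.19 and 1.21 with budesonide, 1.12, 1.07 and 1.12 with proline, and 0.925, 1.05 and 1.11 in control. All 3 libraries of both compounds lay above all 9 others, and the other groups overlapped. The mean log2 ratio was 0.94 ± 0.14 with both compounds, 0.21 ± 0.09 with budesonide, 0.14 ± 0.04 with proline and 0.03 ± 0.13 in control (SD, n = 3 each).

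The log2 ratio with both compounds was higher than with budesonide by 0.73, than with proline by 0.81 and than in control by 0.91. Permuting the libraries exactly, two-sided, each of these differences reached p = 0.1, which is the lower limit for 3 against 3 libraries, and 0.2 after Benjamini-Hochberg adjustment over the 6 pairs of groups. The other 3 differences ran from 0.07 to 0.17 with exact p-values of 0.2 to 0.3. Leaving out any 1 library kept the difference of both compounds from the other groups between 0.66 and 0.97.

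**Figure D3:**
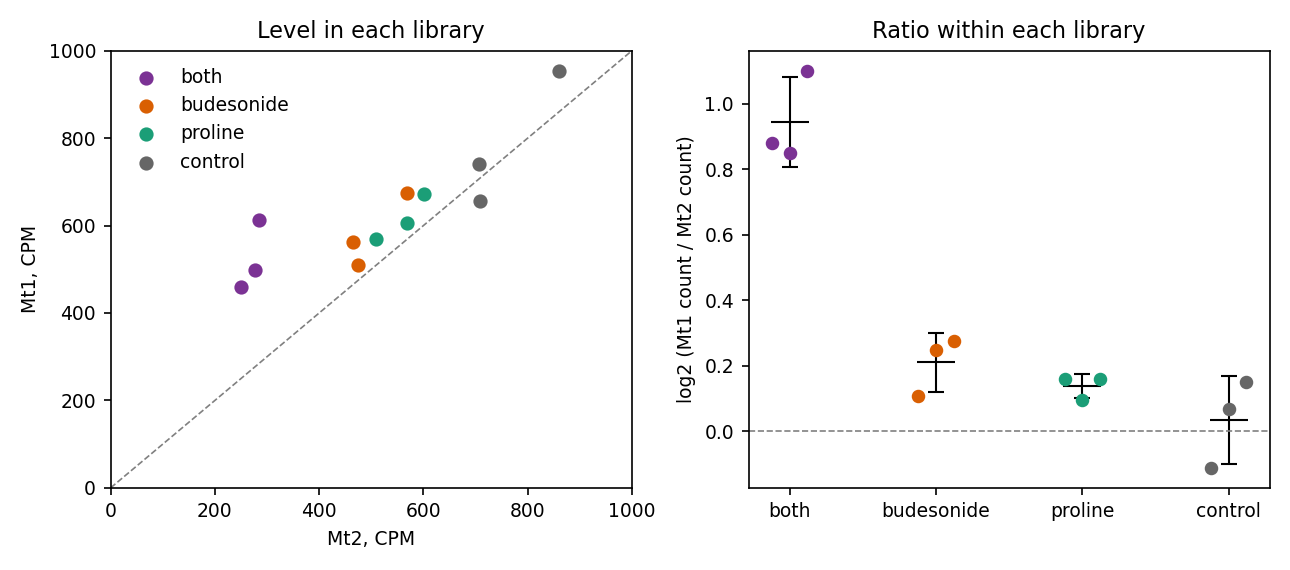
Left, Mt1 against Mt2 in each library (CPM on both axes; dashed line, equal values). Right, the log2 ratio of Mt1 to Mt2 counts by group, with points for libraries and bars for the mean ± SD of 3. The libraries of both compounds sit at 0.85 to 1.10 and all others at −0.11 to 0.27.

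Changes in these libraries went with transcript length, and the metallothionein transcripts are short. The longest GENCODE transcript is 511 bases for Mt2 and 1085 for Mt1. Among tested genes of at least 100 CPM, the median log2 change with budesonide against control was −0.26 for the 172 with transcripts up to 1 kb (quartiles −0.48 and −0.03), −0.25 for the 356 of 1 to 2 kb (−0.45 and −0.03) and 0.12 for the 124 over 8 kb. Mt2, at −0.59, lay below the lower quartile of its length class, and Mt1, at −0.43, lay inside the quartiles of its own. With both compounds against control the medians were −0.13 and −0.10 in the 2 short classes, and with both against budesonide they were 0.15 and 0.16, where Mt2 was at −0.90 and Mt1 at −0.16. With the length trend taken out, Mt2 still fell with both compounds against control by 1.31 and against proline by 0.93 on the log2 scale.

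**Figure D4:**
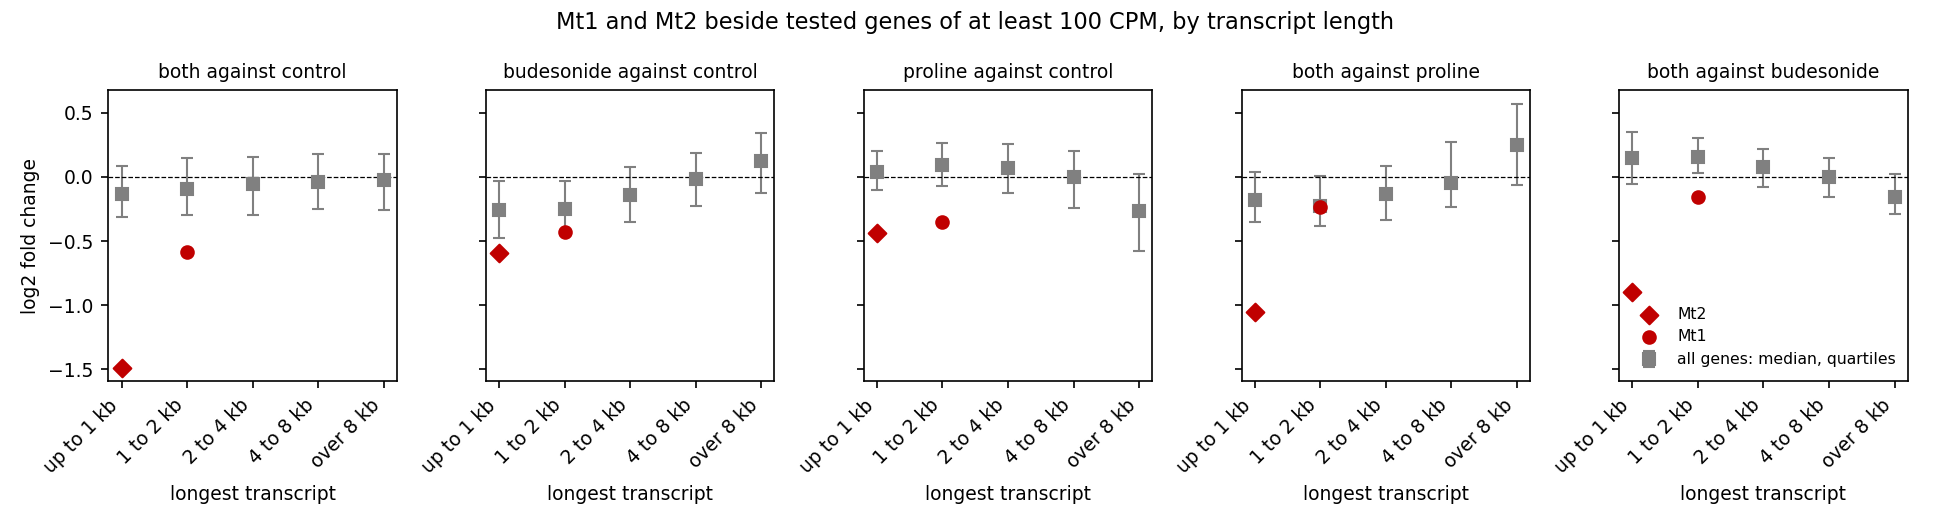
Log2 fold changes (y axis) of Mt2 (diamonds) and Mt1 (circles) beside the median and quartiles (grey) of tested genes of at least 100 CPM, by longest transcript (x axis), in 5 comparisons. Budesonide against control has medians of −0.26 in the shortest class and 0.12 in the longest, and Mt2 lies at −0.90 where the shortest class has a median of 0.15, in both against budesonide.

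Depth, RNA content and cell type markers were read in the same libraries. The share of tested genes without a count was 8.43% in budesonide 3 and 6.57% in control 3, while the others had 1.39% to 5.77%, and control 3 had the highest Mt1 and Mt2 of all libraries. The 18S ribosomal RNA gene Rn18s took 3.11% to 5.90% of counts with both compounds, 2.28% to 6.70% with budesonide, 2.36% to 3.39% with proline and 2.21% to 2.77% in control. Its part in the fall of Mt2 was not tested. All 8 stem cell markers had counts, with a summed level of 2645 to 2805 CPM with both compounds, 2437 to 2662 CPM with budesonide, 2270 to 2500 CPM with proline and 2633 to 3022 CPM in control. That sum covers members that moved apart. With proline against control, where 7.88% of all tested genes were called, 3 of the 8 fell: Esrrb to 118 ± 13.3 CPM, against 376 ± 56.7 CPM in control (adjusted p = 3.68e-08), Zfp42 to 55.2 ± 4.99 CPM, against 141 ± 30.7 CPM (6.00e-06), and Nanog to 111 ± 17.1 CPM, against 217 ± 41.0 CPM (9.62e-05; SD, n = 3 each). Utf1 was at 675 ± 59.1 CPM with proline and 533 ± 38.8 CPM in control (adjusted p = 0.0949), and it fell with both compounds to 374 ± 32.5 CPM (0.0109) and with budesonide to 364 ± 64.4 CPM (0.00724), the 1 marker of 8 called in each (7.17% and 6.51% of all genes called). With both compounds Esrrb averaged 340 ± 53.4 CPM, Zfp42 118 ± 9.33 CPM and Nanog 278 ± 11.2 CPM. These 3 rose, and Utf1 fell, with both compounds and with budesonide against proline (10.1% and 20.1% of all genes called). The same 3 were called in the interaction (adjusted p = 0.000162, 0.000949 and 0.0173), as 0.469% of all genes were. Visceral and yolk sac endoderm is rich in metallothionein, and its 10 markers summed to 14.9 to 22.6 CPM with both compounds, 5.40 to 17.8 CPM with budesonide, 26.2 to 29.3 CPM with proline and 7.25 to 13.1 CPM in control, with Ttr at 0 in every library. The 7 feeder fibroblast markers summed to 2.15 to 5.85 CPM with both compounds, 3.61 to 5.40 CPM with budesonide, 16.3 to 21.8 CPM with proline and 8.10 to 17.3 CPM in control, with Postn and Lum at 0. Their part in the results was not tested.

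Mtf1 did not pass the test in any comparison. Its level was 25.2, 36.3 and 31.5 CPM with both compounds, 30.7, 34.1 and 32.3 CPM with budesonide, 33.1, 37.2 and 35.4 CPM with proline, and 46.6, 42.4 and 34.4 CPM in control. Control was highest on average and both compounds lowest, and the budesonide libraries lay just below all control libraries, which 12.2% of tested genes did. The log2 change was −0.41 ± 0.21 with both compounds against control (95% interval −0.85 to 0.03, adjusted p = 0.296), −0.35 ± 0.21 with budesonide (adjusted p = 0.394) and −0.22 ± 0.21 with proline (adjusted p = 0.650). The interval for both compounds leaves out a fall of the size seen for Mt2.

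Slc30a1 varied most between replicates. It had 25.4, 25.3 and 40.3 CPM with both compounds, 24.5, 30.1 and 49.1 CPM with budesonide, 31.7, 23.7 and 41.4 CPM with proline, and 34.2, 52.0 and 40.6 CPM in control. Every pair of groups overlapped, and the SD was 21.4% to 37.4% of the group mean. The change was −0.48 ± 0.28 with both compounds against control (95% interval −1.05 to 0.10, adjusted p = 0.373), −0.29 ± 0.28 with budesonide (adjusted p = 0.643) and −0.39 ± 0.28 with proline (adjusted p = 0.507). The interval with both compounds leaves out the −1.49 of Mt2 and holds the −0.58 of Mt1.

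The genes most like each of the 4 over the 12 libraries were named by Pearson's r of log2 CPM among genes with a mean of at least 10 CPM. This is a description, since the libraries share their groups and the top genes of 8091 were picked for their r. For Mt2 they were Gars, a glycyl-tRNA synthetase (r = 0.97), Pck2, the mitochondrial phosphoenolpyruvate carboxykinase (0.94), Psat1, an enzyme of serine synthesis (0.93), Rfc1, a subunit of the replication clamp loader (0.93), and Gpx3, a secreted glutathione peroxidase (0.93). Gars averaged 279 ± 14.0 CPM with both compounds, 377 ± 17.4 CPM with budesonide, 368 ± 29.1 CPM with proline and 458 ± 25.4 CPM in control (SD, n = 3 each). Pck2 averaged 14.6 ± 2.37 CPM with both, 30.1 ± 7.09 CPM with budesonide, 26.6 ± 2.49 CPM with proline and 41.3 ± 5.53 CPM in control. Both follow the order in which both compounds are lowest and control is highest.

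For Mt1 the most similar genes were Klhl26 (r = 0.93), Uqcr10 and Uqcrq, subunits of respiratory complex III (0.92 and 0.91), Man1a2, a mannosidase of the Golgi (0.92), and Prkcsh, a subunit of glucosidase II (0.91). Mt2 stood at rank 71 for Mt1 with r = 0.81, and Mt1 at rank 101 for Mt2, so by r many genes followed either metallothionein more closely than its neighbour did. Ranked by Spearman's rho, 0.87 for this pair, they stood nearer to each other, at 13 and 33.5. For Mtf1 the most similar genes by r were the splicing factor Crnkl1 (0.90), the kinase Nek4 (0.87), the ubiquitin ligase subunit Fbxw7 (0.85), Zc3h15 (0.83) and Katna1, a subunit of the microtubule-severing katanin (0.82). For Slc30a1 they were the centriole gene Cep120 (0.91), Ndufb11b (0.88), Coq2 of coenzyme Q synthesis (0.83), Pef1 (0.80) and the RNA helicase Ddx28 (0.77). Mtf1 had an r of 0.62 with Mt2 and 0.47 with Mt1. By Spearman's rho, 0 of the 5 genes nearest to Mt2 and 2 of the 5 nearest to Mtf1 and to Slc30a1 were again among the first 5, and for Mt1 the count was 1 to 3, depending on the order of 5 genes with tied rho.

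No zinc exporter passed the test in any comparison by edgeR. Of 10 exporters of the Slc30 family, which move zinc out of the cytosol, 8 were tested, Slc30a1 among them, and 0 were called in any of the 6 comparisons or the interaction by edgeR, with 0 or 1 at an unadjusted p under 0.05 in each, where all tested genes had 8.65% to 31.6%. DESeq2 called 0 in each and limma-voom called 1, in budesonide against proline alone, where it called 24.5% of all genes. Their median log2 change with both compounds against control was 0.01, and 0.01 over all tested genes. Slc30a3 and Slc30a8 were below the filter, with 102 and 0 counts in all. Mt4 and Mt3, the metallothioneins of skin and brain, had 72 and 65 counts over all 12 libraries. Mt4 passed the filter and was called in no comparison, and Mt3 was below the filter.

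Of 14 importers of the Slc39 family, which bring zinc into the cytosol, 11 were tested, and edgeR called 1 with both compounds against proline (10.1% of all genes), 1 with both against budesonide (1.47%), 1 with budesonide against proline (20.1%) and 0 in the other comparisons. Slc39a4, the importer that takes up dietary zinc in the gut, rose with both compounds to 81.8 ± 7.69 CPM, against 44.1 ± 7.14 CPM with proline (SD, n = 3 each; log2 0.89 ± 0.19, adjusted p = 0.00394). It averaged 67.6 ± 3.93 CPM with budesonide and 54.7 ± 16.3 CPM in control, and it was called higher with budesonide against proline (0.61 ± 0.19, adjusted p = 0.0278), a call that ended in 4 of 16 alternatives, without proline 2 (0.130), proline 3 (0.0624), budesonide 1 (0.0527) or budesonide 2 (0.0853). Slc39a1, an importer at the plasma membrane, stood at 58.6 ± 5.69 CPM with both compounds, against 33.7 ± 3.77 CPM with budesonide (0.80 ± 0.20, adjusted p = 0.0484). That call ended in 11 of 16 alternatives, with each library of these groups left out among them (adjusted p up to 0.213).

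No importer was called with both compounds against control by edgeR, though 5 of 11 had an unadjusted p under 0.05, against 2777 of all 13852 tested genes. These did not share a direction: Slc39a6 went down (−0.68 ± 0.31, unadjusted p = 0.0386), and Slc39a1, Slc39a4, Slc39a9 and Slc39a10 went up. DESeq2 called 2 of the 11 and 10.1% of all genes, and limma-voom 0 of the 11 and 6.69% of all genes. The importers' median log2 change there was 0.50, against 0.01 over all tested genes, and with both compounds against proline it was 0.38, against 0.02. Slc39a10, another plasma membrane importer, averaged 84.3 ± 8.93 CPM with both compounds, 72.7 ± 10.9 CPM with budesonide, 65.1 ± 7.41 CPM with proline and 58.2 ± 6.50 CPM in control (both against control, 0.53 ± 0.17, adjusted p = 0.0565). Slc39a7 was listed at 0 in every library, and Slc39a2 and Slc39a12 had 33 and 3 counts in all. Whether the 0 of Slc39a7 reflects the cells or how reads were counted was not tested.

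**Figure D5:**
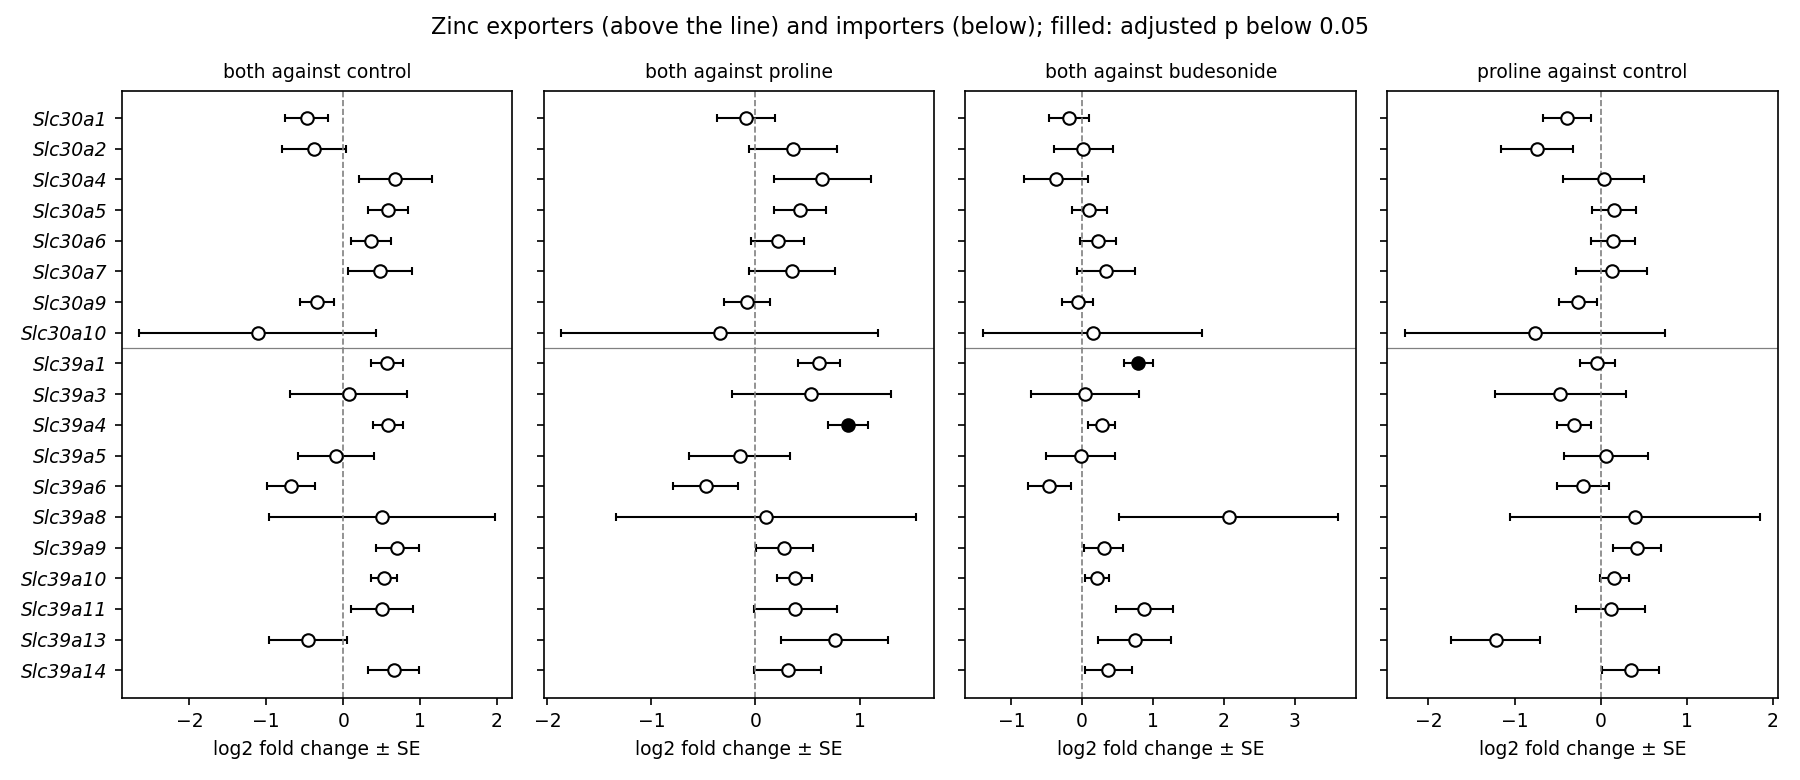
Log2 fold change ± SE (x axis) of the tested zinc exporters (upper rows) and importers (lower rows) in 4 comparisons. Filled points passed an adjusted p of 0.05: Slc39a4 in both against proline (0.89) and Slc39a1 in both against budesonide (0.80).

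Metallothioneins also bind copper. Of the 11 genes of copper handling, Mt1 and Mt2 among them, the calls with both compounds against control were Mt1 and Mt2 alone (7.17% of all genes called). The list's median log2 change there was −0.22, against 0.01 over all tested genes. It counts Mt1 and Mt2, and the whole list was chosen with earlier results known, so it is no independent support. The genes other than Mt1 and Mt2 ran from −0.67 (Cox17) to 0.40 (Slc31a1), with none called. Atox1, a copper chaperone, fell with budesonide to 227 ± 9.66 CPM, against 330 ± 74.1 CPM in control (SD, n = 3 each; log2 −0.54 ± 0.13, adjusted p = 0.0152). That call ended in 5 of 16 alternatives, without control 3 (0.117) or budesonide 1 (0.0563), without control 3 and budesonide 3 together (0.130), with only these 6 libraries (0.0633) and with the length trend taken out (log2 −0.30, adjusted p = 0.232). Atox1 also fell with budesonide against proline (−0.69 ± 0.13, adjusted p = 0.000613), and Ccs, the copper chaperone of superoxide dismutase, rose there (0.57 ± 0.18, adjusted p = 0.0231), a call that ended in 5 of 16 alternatives (up to 0.124).

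Of 14 genes of the metal and oxidant response, which holds Mt1, Mt2 and Slc30a1 beside targets and regulators of the oxidant-sensing factor Nfe2l2, 3 rose and 3 fell with both compounds against control, where 7.17% of all tested genes were called. The whole list was chosen with earlier results of these data known, so the count is no independent support. Those that fell were Mt1, Mt2 and the selenoprotein gene Selenow (−0.80 ± 0.21, adjusted p = 0.0203). Those that rose were Gclc, a subunit of the enzyme that limits glutathione synthesis (0.97 ± 0.26, adjusted p = 0.0209), Nfe2l2 itself (0.56 ± 0.16, adjusted p = 0.0354) and the haem-responsive repressor Bach1 (2.39 ± 0.38, adjusted p = 0.000356). The calls of Selenow, Gclc and Nfe2l2 each ended in 4 to 6 of 16 alternatives (adjusted p up to 0.173, 0.103 and 0.195), and that of Bach1 in 0. Nqo1, a quinone reductase of the Nfe2l2 response, rose with budesonide to 60.2 ± 16.9 CPM, against 27.1 ± 3.56 CPM in control (1.15 ± 0.24, adjusted p = 0.00408; 0.0600 without control 3 and budesonide 3 together), and fell with proline to 12.6 ± 2.05 CPM (−1.09 ± 0.24, adjusted p = 0.00577). Nqo1 stood at 37.0 ± 4.32 CPM with both compounds and was called higher against proline with both (1.54 ± 0.24, adjusted p = 0.000180) and with budesonide (2.24 ± 0.25, 7.00e-07).

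Bach1 also rose with budesonide (2.49 ± 0.38, adjusted p = 0.000307) and with proline against control (1.53 ± 0.38, 0.0130), the second call ending in 3 of 16 alternatives (up to 0.0900). Keap1, the inhibitor of Nfe2l2, fell with proline against control (−0.87 ± 0.25, adjusted p = 0.0285), a call that ended in 4 of 16 alternatives (up to 0.168), and it rose with budesonide against proline (0.88 ± 0.24, 0.0127; 0.0845 without proline 3). Txnrd1, a thioredoxin reductase, fell with budesonide against proline (−0.49 ± 0.13, adjusted p = 0.00620), and Selenow fell with both compounds against proline (−0.68 ± 0.21, 0.0397), a call that ended in 7 of 16 alternatives (up to 0.157). The list's members moved both ways, with a median log2 change of −0.19 with both compounds against control, against 0.01 over all tested genes. That median counts Mt1, Mt2 and Slc30a1, which all had negative changes there, so it is no independent support either.

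The glucocorticoid receptor gene Nr3c1 and genes that glucocorticoids induce elsewhere were read beside Mt1 and Mt2. Of 9 tested, Klf9, a transcription factor, and Nfkbia, the inhibitor of NF-kappa-B, rose with budesonide against control, where Mt2 fell and 6.51% of all genes were called. With both compounds against control 3 of 9 rose (7.17% of all genes called). Nfkbia averaged 193 ± 17.8 CPM with both compounds, 214 ± 26.9 CPM with budesonide, 76.6 ± 3.71 CPM with proline and 121 ± 5.18 CPM in control (SD, n = 3 each). It rose with both compounds (0.68 ± 0.13, adjusted p = 0.00171) and with budesonide (0.83 ± 0.13, 0.000370), and fell with proline (−0.66 ± 0.13, 0.00197). Dusp1, a MAP kinase phosphatase, stood at 22.8 ± 7.84 CPM with both compounds and 8.52 ± 3.74 CPM in control (1.42 ± 0.37, adjusted p = 0.0203), a call that ended in 4 of 16 alternatives (up to 0.166). Klf9 averaged 1013 ± 51.4 CPM with both compounds, 896 ± 42.2 CPM with budesonide, 577 ± 18.9 CPM with proline and 699 ± 14.1 CPM in control (SD, n = 3 each). Its change with both compounds against control was 0.53 ± 0.09 (adjusted p = 0.000674), and with budesonide alone 0.36 ± 0.09 (adjusted p = 0.0193), a call that ended in 6 of 16 alternatives (up to 0.0858). Klf9 and Nfkbia were also called higher with both compounds and with budesonide against proline. Fkbp5, often used to read glucocorticoid action, stood at 99.4 ± 4.14 CPM with both compounds and 99.7 ± 5.66 CPM in control (adjusted p = 0.994). Nr3c1, Tsc22d3, Per1, Sgk1 and Errfi1 were tested too and, like Fkbp5, were called in no comparison by edgeR. Zbtb16, also listed, was below the filter with 6 counts in all.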

How the data were processed

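Gene-level counts (whole numbers, 1 row per gene symbol) for 12 libraries are what the authors deposited and what was used. A second, normalised table was not used. Per the labels' protocols, a 3′ kit (QuantSeq) turned polyadenylated RNA into 1 fragment per transcript. In no stated role, the submitters' processing notes list STAR 2.7.5c, featureCounts 2.0, cutadapt 2.5, bcl2fastq, DESeq2 and the build GRCm39. Not given in the sources used here are the annotation, the strand setting and how reads with several matches were treated, so counts of Mt1 and Mt2, which are similar in sequence, may be split between copies.

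edgeR 4.0.16 under R 4.3.3 was run on all 12 libraries with 1 coefficient per group: filterByExpr (minimum count 10, minimum total 15), TMM, and the quasi-likelihood F test, two-sided. P-values were adjusted by Benjamini-Hochberg over all 13852 genes, and a gene was called, and said to have risen or fallen, at an adjusted p below 0.05. Log2 changes used a prior count of 0.125, the SE is the absolute change over the square root of F, and the log2 ratio of Mt1 to Mt2 added 0.5 to each count. There were 6 pairs of groups and the interaction. Alternatives were DESeq2 1.42.0, limma-voom (limma 3.58.1), other scalings and filters, a replicate block, a length offset and left-out libraries. The fit was also run on counts simulated from its own model, with genes changed in the group of both compounds alone. Such counts cannot show whether that model misfits these libraries. No pair of replicates was a repeat of 1 library (chi-square over its degrees of freedom, at least 5.81). Transcript lengths came from GENCODE vM21 (97.7% of tested genes matched) and promoters from RefSeq, where all 4 genes matched. The genes, lists and tests were chosen with earlier results of these data known. Named genes are the 4, the 5 most like each by Pearson's r, and list genes that were called. Listed genes left out by the filter are named to account for them, and Slc39a10, Fkbp5 and the stem cell markers were picked after their values were seen. So were the other list genes named without a call, and the single endoderm and feeder markers.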

Additional observations from a re-analysis of the deposited data

How the results depend on the processing

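For the 4 genes, the 28 results gave 468 alternative values in all, 16 for each pair of groups and 21 for each interaction, of which 438 kept the direction and the side of the threshold. The calls of Mt2 with both compounds against control, proline and budesonide held throughout. Mt1 with budesonide against control became called with upper-quartile scaling (−0.47), DESeq2 (−0.42), limma-voom (−0.43) and no filter (−0.42). Mt2 with budesonide against control lost its call with the length offset (−0.36), where Mtf1 with both against budesonide (0.024) and, with budesonide against proline, Mt1 (0.13), Mt2 (0.026) and Slc30a1 (−0.042) changed sign. Without control 3 and budesonide 3 together, Mt2 with proline against control (−0.35) and Mt1 with both against control (−0.42) lost their calls, and Slc30a1 with both against budesonide (0.15) and budesonide against proline (−0.23) and the Mt1 interaction (−0.0039) changed sign. The cause was not tested.

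Genes called with both against budesonide numbered 203, against 435 by DESeq2, 354 with no filter, 120 with only these groups fitted and 128 with the replicate block. The interaction called 65, against 162 by DESeq2 and 134 with no filter. Budesonide against control called 902, against 493 with only these groups and 575 without control 3 and budesonide 3. The replicate block changed no call of the 4 genes. No pairing by replicate number was seen: deviations of same-numbered libraries correlated at −0.0767 to 0.0529 over 18 pairs. Those of other-numbered libraries correlated at −0.0752 to 0.0819 over 36 pairs. The labels do not say whether a number marks a shared culture or day, and such low correlations cannot show that it does not. Slc39a1 with both against budesonide lost its call under the block (adjusted p = 0.0802).

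Leaving out 1 library at a time gave 674 to 887 genes for proline against control, 620 to 809 for budesonide against control, 535 to 789 for both against control, 836 to 1095 for both against proline, 80 to 171 for both against budesonide and 44 to 89 for the interaction. The log2 change ran from −0.49 to −0.34 for Mt2 with proline against control, −0.55 to −0.26 for Mt1 with budesonide and −0.71 to −0.42 for Mt1 with both against control. Changes that were not called and crossed 0 were those of Slc30a1 with both against proline (−0.35 to 0.13), both against budesonide (−0.45 to 0.16), budesonide against proline (−0.24 to 0.31) and the interaction (−0.059 to 0.54), of Mt1 with budesonide against proline (−0.21 to 0.0092) and of Mtf1 with both against budesonide (−0.19 to 0.067). Mtf1 and Slc30a1, with means of 34.9 and 34.8 CPM over the 12 libraries, had wider intervals than the metallothioneins.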
